A study of Mus musculus with 4 samples.

Results

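A small set of germ cells of the neonatal mouse testis carried transcripts of *Meioc*, a gene needed to keep cells in the meiotic programme. They were taken from single-cell RNA sequencing of testes at postnatal day 8, in which testis cells sorted by flow cytometry as CD9+ and THY1+, a sort that also left many somatic cells, were profiled from both genotypes with 10x Genomics 3′ chemistry. A barcode was kept as a germ cell when it held at least 8000 UMIs (unique molecular identifiers, one per captured transcript), at most 20% mitochondrial UMIs, at least 10 UMIs of *Ddx4* plus *Dazl*, and under 0.3% of UMIs each from a stromal set (*Col1a1*, *Col1a2*, *Col3a1*, *Dcn*) and a Sertoli set (*Cst12*, *Cst9*, *Rhox8*, *Amh*, *Aard*). Of 1699 such germ cells, the 166 with at least 3 *Meioc* UMIs are described here and are called Meioc-positive cells. They comprised 115 of 1196 germ cells in the control and 51 of 503 in the *Cnot3*-cKO.

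The control mice were *Cnot3* flox/flox without Cre and carry the label wild-type. The *Cnot3*-cKO mice were *Cnot3* flox/flox with *Ddx4*-creER, a tamoxifen-dependent Cre driven by the germ cell promoter of *Ddx4*. Both genotypes were given 4OHT, the active form of tamoxifen, in the first days of life. The labels give the injections as starting on day 1 in every sample. They end on day 1 or 2 in the control samples and on day 3 or 4 in the *Cnot3*-cKO samples, so that the labelled schedule differed along with the genotype. The study's text instead gives day 1 to day 3 for its neonatal mice, controls included. Which days were used for these samples could not be checked. Each genotype has 2 samples in the labels but a single merged table of cells, and no barcode could be traced to one of the 2 samples. There was therefore 1 library per genotype, no test was possible, and every interval given here is an exact 95% interval that covers counting error only.

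In the testis, undifferentiated spermatogonia hold the stem cells, which respond to the growth factor GDNF through the receptor pair GFRA1 and RET. They give rise to undifferentiated progenitors, and retinoic acid then drives these to become differentiating spermatogonia, which express the receptor tyrosine kinase KIT, divide several times and finally enter meiosis. *Stra8* is switched on by retinoic acid along this path. MEIOC, with its RNA helicase partner YTHDC2, acts on RNA so that the mitotic programme is shut down and the long meiotic prophase can proceed. CNOT3, the deleted protein, is a subunit of CCR4-NOT, the main complex that shortens mRNA poly(A) tails.

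*Meioc* itself is on chromosome 11, plus strand, at chr11:102663716-102682237 in the GENCODE annotation of GRCm38. The sequences before a RefSeq start of *Meioc* and of 3 genes that were high in the same cells are shown: *Prss50* (a testis serine protease-like protein), *Esx1* (an X-linked homeobox factor) and *Prdm9* (the histone methyltransferase that marks meiotic recombination hotspots). Each run gives the 250 bases before an annotated RefSeq start on GRCm38.p6, written 5′ to 3′ on the gene's own strand. The RefSeq starts used for *Meioc* and *Esx1* differ from the GENCODE gene starts. Their runs therefore lie inside the GENCODE spans of these genes, which for *Esx1* is chrX:137115397-137122083. Each was searched for 4 short motifs on both strands. Capitals mark every match to them.
Meioc, chr11:102665335-102665584, plus strand: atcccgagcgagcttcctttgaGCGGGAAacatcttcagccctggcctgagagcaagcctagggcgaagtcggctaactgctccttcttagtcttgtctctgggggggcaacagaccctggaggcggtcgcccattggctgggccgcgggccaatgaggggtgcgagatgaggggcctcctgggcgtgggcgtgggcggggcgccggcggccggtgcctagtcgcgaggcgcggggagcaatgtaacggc
Prss50, chr9:110857714-110857963, plus strand: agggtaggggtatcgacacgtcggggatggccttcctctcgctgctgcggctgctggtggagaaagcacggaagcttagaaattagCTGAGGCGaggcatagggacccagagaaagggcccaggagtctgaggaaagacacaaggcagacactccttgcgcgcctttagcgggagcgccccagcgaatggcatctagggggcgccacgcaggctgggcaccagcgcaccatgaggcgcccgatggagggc
Esx1, chrX:137120327-137120576, minus strand: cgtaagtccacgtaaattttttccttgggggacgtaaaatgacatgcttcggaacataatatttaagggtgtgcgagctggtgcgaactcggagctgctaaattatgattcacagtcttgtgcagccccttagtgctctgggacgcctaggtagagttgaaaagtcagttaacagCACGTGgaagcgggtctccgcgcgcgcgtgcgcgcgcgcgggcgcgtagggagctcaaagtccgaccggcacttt
Prdm9, chr17:15564355-15564604, minus strand: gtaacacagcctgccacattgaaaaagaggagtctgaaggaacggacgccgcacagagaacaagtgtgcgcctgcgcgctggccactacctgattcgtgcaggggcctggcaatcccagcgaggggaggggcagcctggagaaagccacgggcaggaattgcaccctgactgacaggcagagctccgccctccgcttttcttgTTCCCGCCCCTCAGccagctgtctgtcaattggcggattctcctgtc

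The *Meioc* match was to GCGGGAA, an E2F-type motif, and began 228 bases before the start. The *Prss50* match was to CNCCTCAG, a STRA8-type motif, on the opposite strand. *Prss50* also has a second annotated start a few bases downstream, not shown, whose run holds the same match. The *Esx1* match was to the E-box CACGTG. In *Prdm9*, an E2F-type match on the opposite strand overlapped a STRA8-type match by 1 base. A second annotated start of *Prdm9*, not shown, held no match to any of the motifs. The fourth motif, the CRE letters TGACGTCA, was absent from all 4 sequences. Of the 10 genes named below as highest in these cells, 8 had a RefSeq promoter, and the 4 highest of them are shown. In the same search *Sgcb*, *Rhox13* and *Hist1h2aa*, which are not shown, held none of the motifs. *E2f2*, also not shown, held a STRA8-type match at an annotated start. Each motif was then counted in windows of 300 bases, from 250 before to 50 after a start. A gene with more than 1 annotated start counted with each of its windows, and such windows can overlap. The E2F-type letters stood in 4.60% of all 32851 promoter windows, the E-box in 7.15%, the STRA8-type letters in 7.94% and the CRE in 1.79%. The genes higher in Meioc-positive cells, described below, had 192 windows from 144 genes. The E2F-type letters stood in 27 of these 192 (14.1%), against 9.06% for all genes at the count minimum and 15 of 199 (7.54%) for the genes lower in Meioc-positive cells. The E-box ran the other way, at 7.29% for the higher genes against 10.8% for all genes at the minimum, and the STRA8-type letters (10.9% against 9.29%) and the CRE (3.65% against 3.36%) stood closer. The windows of the higher genes also had the higher GC content, with a median of 63.3% against 61.7% for all genes at the minimum and 58% for the lower genes. These shares are descriptions of letters and say nothing about binding.

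The 2 libraries held 181550221 UMIs in the control and 168770743 in the *Cnot3*-cKO. Meioc-positive cells had a median of 34272 UMIs and 6231 genes in the control and 37940 UMIs and 6491 genes in the *Cnot3*-cKO. The other germ cells were deeper, with medians of 42615 and 46552 UMIs. Median mitochondrial shares of Meioc-positive cells were 9.83% and 9.93%. No Meioc-positive barcode was also a Meioc-positive cell of the other library. The 8 Sertoli markers summed to 129 CPM (counts of a gene or list per 1000000 UMIs of the cells) in Meioc-positive control cells and 161 CPM in Meioc-positive *Cnot3*-cKO cells, against 6538 and 6703 CPM in cells marked as Sertoli cells, and *Gata1* was at 0 in both. From the Sertoli gate genes, free RNA was estimated at 6.28% and 4.97% of the UMIs of Meioc-positive cells. The gate had already removed cells with more UMIs of these same genes, so the estimate is limited by the rule. The summed macrophage markers were at 2.30 CPM in Meioc-positive control cells and 31.9 CPM in the other control germ cells, but at 3.73 and 3.01 CPM in the *Cnot3*-cKO. Their part in the results was not tested.

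*Cnot3*, the targeted gene, was at 72.0 CPM (64.2 to 80.4) in the Meioc-positive control cells and at 47.1 CPM (38.3 to 57.2) in the Meioc-positive *Cnot3*-cKO cells, a log2 ratio of -0.61 (-0.95 to -0.29). In the other germ cells it was at 71.1 and 38.3 CPM, and in Sertoli-marked cells, where the *Ddx4* promoter should be silent, at 60.6 and 64.8 CPM. *Cnot3* UMIs were thus fewer in germ cells of the *Cnot3*-cKO, but 41 of its 51 Meioc-positive cells still carried at least 1, against 99 of 115 in the control. The 3′ counts do not distinguish a transcript of the intact allele from one of the deleted allele, and the deleted exons were not checked here.

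The share of germ cells that reached 3 *Meioc* UMIs had overlapping intervals in the libraries, while cells with any *Meioc* UMI were fewer in the *Cnot3*-cKO. The first share was 9.62% (115 of 1196, 8.004 to 11.4) in the control and 10.1% (51 of 503, 7.64 to 13.1) in the *Cnot3*-cKO, by the exact Clopper-Pearson method. With every germ cell thinned to 10000 UMIs, a *Meioc* UMI was left in 15.3% (13.3 to 17.4) of the control cells and 12.4% (9.62 to 15.6) of the *Cnot3*-cKO cells. These intervals overlap too. Without thinning, at least 1 *Meioc* UMI was seen in 41.1% (38.3 to 44.0) of the control germ cells and 33.8% (29.7 to 38.1) of the *Cnot3*-cKO germ cells, intervals that do not overlap although the *Cnot3*-cKO cells were the deeper ones. *Meioc* in the germ cells under the minimum was likewise lower in the *Cnot3*-cKO, at a log2 ratio of -0.55 (-0.82 to -0.28). In Sertoli-marked cells, which should lack *Meioc*, 0 of 1113 and 0 of 1785 reached 3 UMIs, and at least 1 UMI was seen in 0.449% and 0.112%. Sertoli-marked cells had at least 1% of UMIs from the Sertoli set and under 3 UMIs of *Ddx4* plus *Dazl*. That choice left out barcodes with more germ cell RNA, so low *Meioc* in them was partly set beforehand. The median depth of these Sertoli-marked cells was lower, at 13182 and 12703 UMIs.

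**Figure D1:**
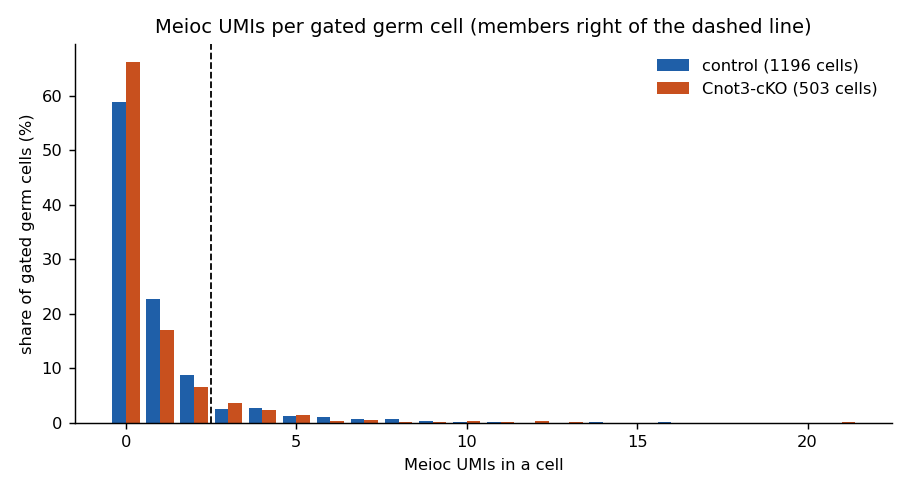
Share of the germ cells of each library (vertical axis, percent) by the number of *Meioc* UMIs in a cell (horizontal axis), with control bars in blue, *Cnot3*-cKO bars in orange and the Meioc-positive cells (members) to the right of the dashed line. The bars fall off without a gap at the line: 105 control cells held 2 *Meioc* UMIs and 31 held 3, and in the *Cnot3*-cKO 33 held 2 and 18 held 3.

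Meioc-positive cells held a median of 4 *Meioc* UMIs in each library, and up to 16 in the control and 21 in the *Cnot3*-cKO. The minimum cut through a continuous range. Cells just outside it, with 2 *Meioc* UMIs, had *Prss50* at 14.3 CPM in the control and 11.3 CPM in the *Cnot3*-cKO, and cells just inside, with 3, had it at 23.6 and 28.4 CPM. *Esx1* was at 25.5 and 30.3 CPM just outside and at 44.9 and 79.3 CPM just inside. *Zbtb16*, a transcription factor of undifferentiated spermatogonia, was at 105 CPM with 2 UMIs and 101 CPM with 3 in the control, and at 68.9 and 42.6 CPM in the *Cnot3*-cKO.

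The other marker genes were higher in cells with 6 or more *Meioc* UMIs than in cells with none, but they did not increase at every step. *Hist1h2aa* in the *Cnot3*-cKO was at 18.3 CPM with no *Meioc* UMI, 20.1 CPM with 3 and 125 CPM with 6 or more. *Prss50* was at 3.38 CPM in control cells with no *Meioc* UMI, at 82.6 CPM in cells with 4 or 5 and at 162 CPM in cells with 6 or more. In the *Cnot3*-cKO the same 3 classes stood at 5.65, 90.7 and 209 CPM. Between the classes with 0 and with 6 or more *Meioc* UMIs, *Ythdc2*, which encodes the helicase partner of MEIOC, went from 27.2 to 86.4 CPM in the control and from 27.7 to 98.7 CPM in the *Cnot3*-cKO. *Sycp1*, the transverse filament protein of the synaptonemal complex, went from 341 to 840 CPM and from 456 to 1103 CPM. *Zbtb16* ran the other way, from 113 to 40.1 CPM and from 84.3 to 12.1 CPM. Between the same classes *Kit* went from 49.0 to 46.3 CPM in the control and from 27.8 to 58.4 CPM in the *Cnot3*-cKO.

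**Figure D2:**
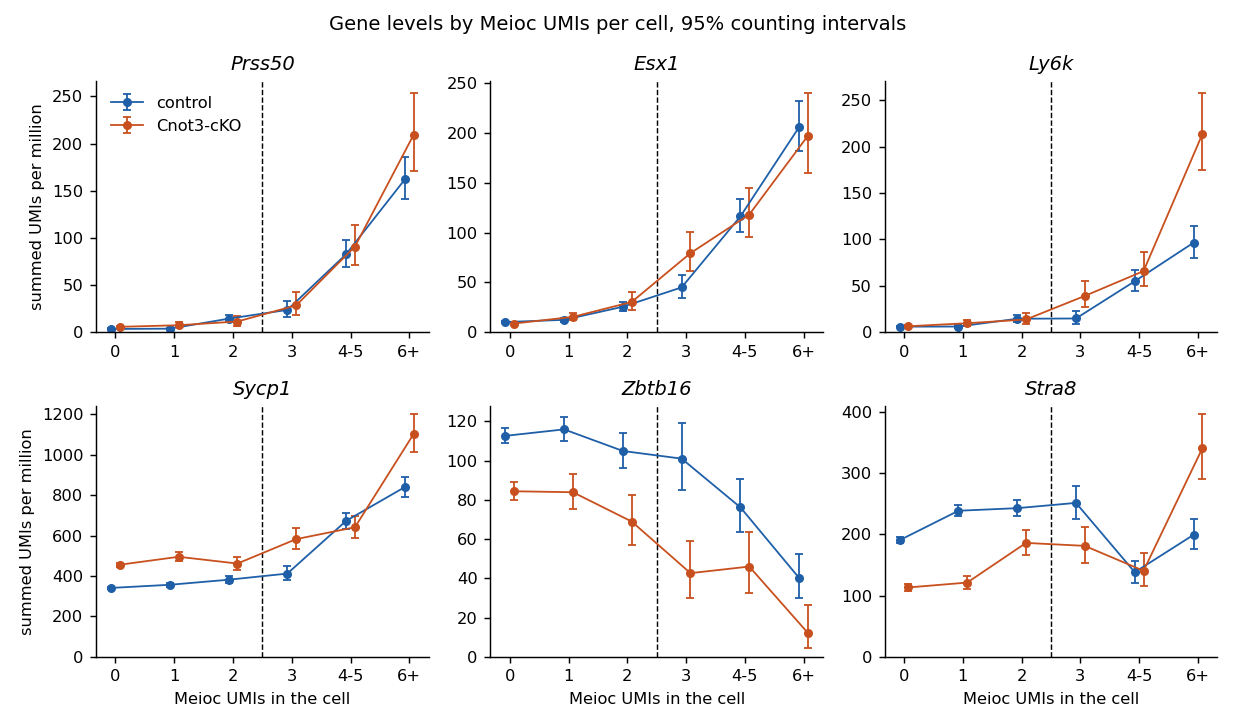
Level of 6 genes, in CPM summed over cells (vertical axis), by the number of *Meioc* UMIs in the cell (horizontal axis), with one line per library, bars for the exact 95% counting interval and the minimum of 3 UMIs as a dashed line. *Prss50* goes from 3.38 to 162 CPM in the control and from 5.65 to 209 CPM in the *Cnot3*-cKO, while *Zbtb16* goes from 113 to 40.1 CPM and from 84.3 to 12.1 CPM.

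The label under which these cells were proposed, late spermatogonia nearing meiosis, was checked against the other markers proposed with it: *Prss50*, *Ly6k* (a GPI-anchored protein of the Ly6 family), *Esx1* and *Hist1h2aa* (a testis-enriched histone H2A). The cells were of unlike kinds. A UMI of 3 or 4 of these markers was present in 116 of the 166 cells: 81 of 115 in the control (70.4%, 61.2 to 78.6) and 35 of 51 in the *Cnot3*-cKO (68.6%, 54.1 to 80.9). At most 1 of the markers was present in 40 cells: 30 of 115 in the control (26.1%, 18.3 to 35.1) and 10 of 51 in the *Cnot3*-cKO (19.6%, 9.82 to 33.1). The rest, 4 and 6 cells, had 2 of the markers. Cells with at most 1 marker were the deeper ones, with median depths of 49467 and 55310 UMIs against 29774 and 34028 UMIs in cells with 3 or 4 markers, although a deeper cell has the better chance of showing a marker. They also held fewer *Meioc* UMIs, with medians of 3 and 3.50 against 5 in both libraries.

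The cells with at most 1 marker carried genes of earlier spermatogonia, but some of these genes differed between the libraries. *Neurog3*, a progenitor gene, was at 29.0 CPM in the control and at 0 UMIs in the *Cnot3*-cKO. *Gfra1* was at 10.1 and 45.2 CPM in these cells. *Zbtb16* was at 161 CPM in them and at 21.9 CPM in cells with 3 or 4 markers in the control, and at 81.9 and 9.40 CPM in the *Cnot3*-cKO. The summed stem list was at 114 against 4.91 CPM in the control and at 199 against 7.84 CPM in the *Cnot3*-cKO, and the summed progenitor list at 750 against 264 CPM and at 512 against 281 CPM. *Ccnd2*, cyclin D2, which is listed with the differentiating genes, was also higher in them, at 173 against 12.5 CPM and at 281 against 20.4 CPM. *Ret*, the GDNF co-receptor, had 60 and 19 UMIs in the cells with at most 1 marker and 0 UMIs in the cells with 3 or 4 markers of both libraries. The data therefore go against the label for these 40 cells, and the whole set is named only by its rule.

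In cells with 3 or 4 markers, some genes of differentiation and meiosis were higher and others were not. *Dmrtb1*, a DM-domain factor of the step from mitosis to meiosis, was at 132 CPM against 1.89 CPM in the control and at 112 CPM against 0 UMIs in the *Cnot3*-cKO. *Kit* was at 67.2 against 16.4 CPM and at 83.1 against 13.4 CPM. *Prdm9* was at 32.8 against 1.89 CPM and at 35.3 against 10.0 CPM, and *Sycp1* at 844 against 294 CPM and at 887 against 440 CPM. *Mki67*, a gene of cycling cells, was at 312.1 against 68.7 CPM and at 292 against 157 CPM. *Stra8* stood the other way in both libraries, at 166 against 240 CPM in the control and at 152 against 301 CPM in the *Cnot3*-cKO. So did *Sohlh1*, a transcription factor of differentiating spermatogonia, at 126 against 288 CPM and at 140 against 336 CPM. *Sycp3* was at 206 against 236 CPM and at 226 against 263 CPM, and the cohesin gene *Rec8* at 15.9 against 15.8 CPM and at 17.2 against 33.4 CPM.

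**Figure D3:**
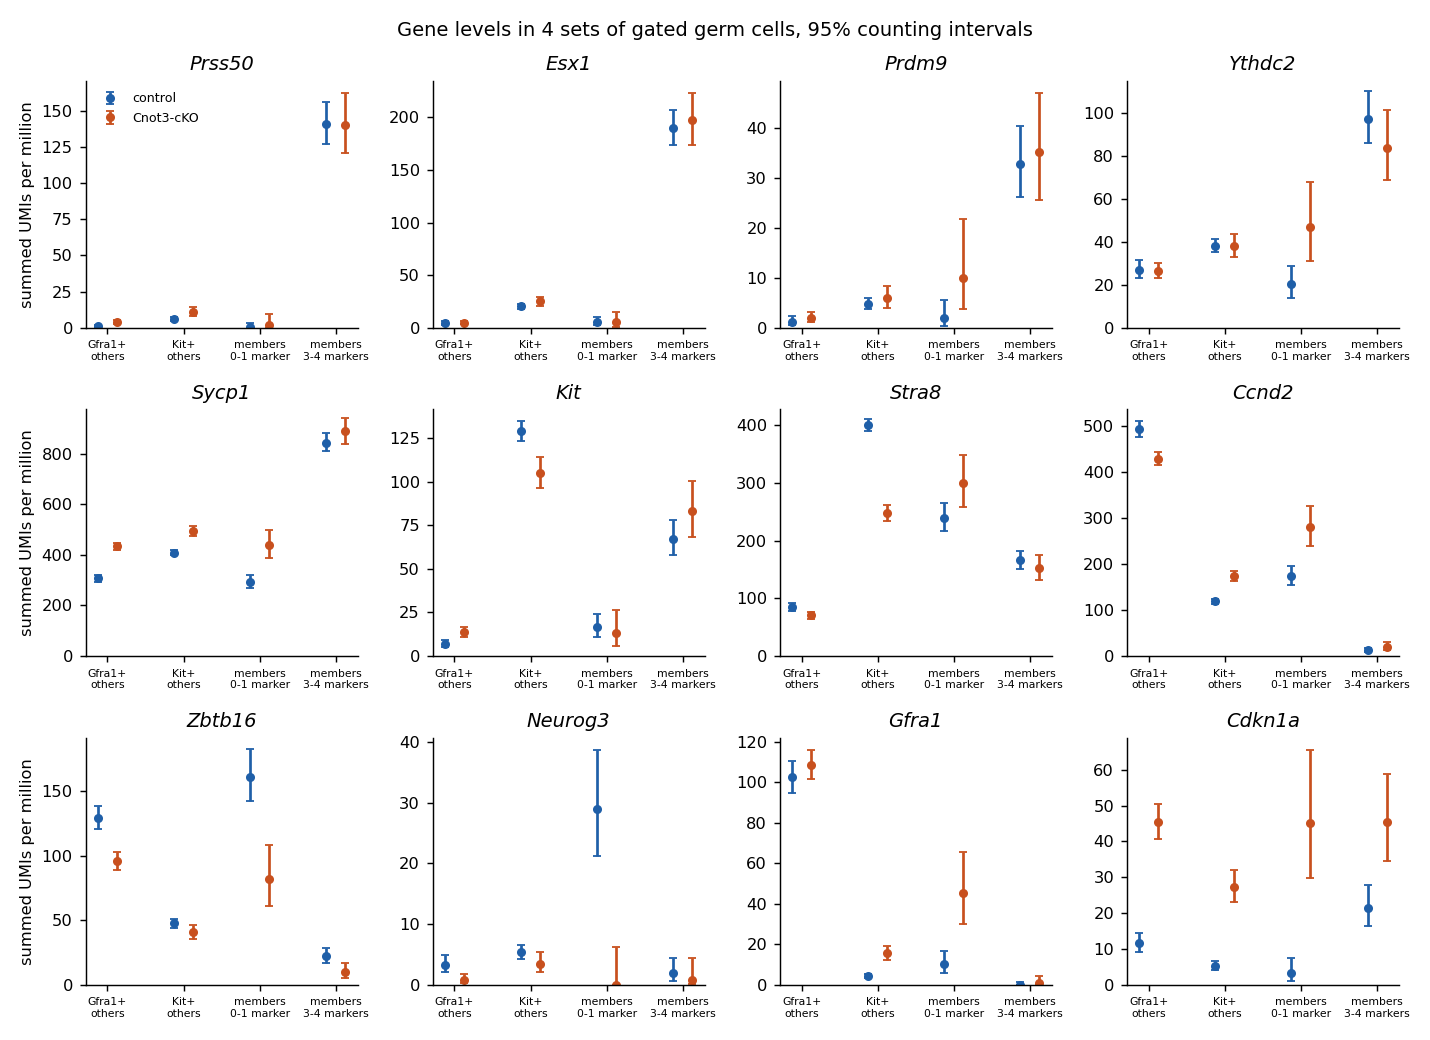
Level of 12 genes, in CPM summed over cells (vertical axes), in germ cells with at least 3 *Gfra1* UMIs or at least 3 *Kit* UMIs that are not Meioc-positive, and in Meioc-positive cells (members) with at most 1 or with 3 or 4 of the other markers. Points are libraries and bars are exact 95% counting intervals, and *Zbtb16* stands at 161 and 81.9 CPM with at most 1 marker but at 21.9 and 9.40 CPM with 3 or 4.

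Against the other germ cells, genes of the testis germ line, the X chromosome and meiosis were among the highest, and genes of stem cells among the lowest. All values that follow are summed over cells, and since the cells were chosen on *Meioc* UMIs of the same data they are a description. Of 10491 genes with at least 100 UMIs in both libraries, 181 (1.73%) were at least 2-fold higher in Meioc-positive cells in both libraries and 209 (1.99%) at least 2-fold lower. *Prss50* ranked first by the fixed rule, at 87.9 CPM against 4.63 CPM in the other control germ cells and at 93.7 against 6.44 CPM in the *Cnot3*-cKO, log2 ratios of 4.25 and 3.86. It was seen in 82 of 115 and 36 of 51 Meioc-positive cells, with up to 20 and 18 UMIs in a cell, and in 0.27% and 0% of Sertoli-marked cells. *Esx1* was at 121 CPM in both libraries against 12.4 and 11.8 CPM, and *Ly6k* at 54.7 and 89.5 CPM against 6.88 and 7.62 CPM. *Hist1h2aa* was at 88.8 and 79.2 CPM against 17.8 and 20.3 CPM. *Meioc*, used by the rule, was at 135 and 129 CPM against 10.4 and 7.15 CPM.

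Other genes high in these cells by the fixed rule were *Prdm9*, *Sgcb* (a sarcoglycan), *E2f2* (a cell cycle transcription factor), the X-linked homeobox gene *Rhox13* and the X-linked transcript *RP23-451C8.3*. *Prdm9* was at 21.2 and 27.5 CPM against 2.73 and 3.81 CPM, log2 ratios of 2.96 and 2.85. *E2f2* was at 18.2 and 20.04 CPM against 2.68 and 3.15 CPM. *Rhox13* was at 177 and 183 CPM against 49.7 and 49.6 CPM. Of 390 X-linked genes at the minimum, 16 (4.10%) were 2-fold higher in both libraries, against 1.73% of all genes, and 8 (2.05%) were 2-fold lower. The X chromosome gave a median of 2.22% of the nuclear UMIs of Meioc-positive cells and 2.03% in the other germ cells of the control, and 2.17% and 2.05% in the *Cnot3*-cKO.

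Genes of meiotic chromosomes were mostly a little higher, and few reached 2-fold. Of 7 meiotic entry regulators at the minimum, *Meioc* and *Ythdc2* were 2-fold higher in both libraries, with *Ythdc2* at 69.9 and 69.0 CPM against 28.0 and 29.8 CPM. *Stra8*, of the same list, was at 192 against 209 CPM in the control and at 203 against 121 CPM in the *Cnot3*-cKO. None of 9 cohesin and axis genes reached 2-fold in both libraries, but the median log2 ratios of 0.47 over the 10 genes at the minimum in the control and 0.36 over the 9 in the *Cnot3*-cKO stood above the medians of all genes, 0.00 and -0.01. *Hormad1*, an axis protein, was at 81.7 and 119 CPM against 42.6 and 79.2 CPM, and *Smc1b*, the meiotic cohesin subunit, at 457 and 644 CPM against 287 and 502 CPM. *Sycp3*, the lateral element protein, was close in the control, at 216 against 223 CPM.

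The 6 synaptonemal complex genes had medians of 0.33 and 0.49 with none past 2-fold in both, and *Sycp1* had 641 and 725 CPM against 349 and 464 CPM. Of 18 recombination genes at the minimum in both libraries, only *Prdm9* was 2-fold higher in both, and the medians were 0.38 over 19 genes in the control and 0.28 over 18 in the *Cnot3*-cKO. *Dmc1*, the meiotic recombinase, was at 42.6 and 53.1 CPM against 27.7 and 31.6 CPM. *Spo11*, which makes the meiotic double-strand breaks, was at 2.99 and 5.13 CPM against 4.87 and 5.73 CPM, and *Mnd1*, a partner of DMC1, at 26.0 and 23.3 CPM against 39.8 and 50.5 CPM. Recombination genes thus did not move as one. Of 16 genes of later spermatocytes and spermatids, 5 were at the minimum in both libraries, and 0 were 2-fold higher or lower in both. The list medians were -0.18 in the control, with 3 of 6 genes above 0, and -0.64 in the *Cnot3*-cKO, with 2 of 5 above 0. *Prm1* and *Acrv1*, genes of spermatids, were at 0 UMIs in the Meioc-positive cells of both libraries. *Acrv1* was also near absent from the other germ cells, with 0 UMIs in the control and 4 in the *Cnot3*-cKO.

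Of 11 genes of differentiating spermatogonia, *Dmrtb1* and *Rhox13* were 2-fold higher and *Ccnd2* 2-fold lower in both libraries. *Dmrtb1* was at 83.7 and 69.4 CPM against 25.6 and 18.1 CPM, and *Ccnd2* at 72.2 and 113 CPM against 208 and 284 CPM. *Kit* was at 48.3 CPM in Meioc-positive cells and 47.2 CPM in the other germ cells of the control, and at 58.2 against 32.5 CPM in the *Cnot3*-cKO. Germ cells chosen for at least 3 *Kit* UMIs and under 3 *Meioc* UMIs, 326 and 102 in number, had *Kit* at 129 and 105 CPM, *Stra8* at 400 and 248 CPM and *Prss50* at only 6.03 and 11.1 CPM.

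Stem cell genes were low. Of 8 stem genes at the minimum in both libraries, 7 were at least 2-fold lower in both: *Ret*, *Tspan8*, *Lhx1*, *Id4*, *Nefm*, *Etv5* and *Gfra1*. Over the 9 stem genes at the minimum in each library, which are not the same 9, the medians were -1.90 and -2.06, with a gene at 0 set to its bound of 3 UMIs. The *Cnot3*-cKO median is such a bound, that of *Eomes*, a T-box factor with 0 UMIs in the Meioc-positive cells. *Id4*, an inhibitor of differentiation, was at 9.89 and 16.3 CPM against 35.7 and 87.1 CPM. *Gfra1*, the GDNF receptor, was at 3.68 and 14.4 CPM against 20.5 and 46.4 CPM. Low stem genes were shared with Kit-positive cells, in which *Id4* was at 6.16 and 23.3 CPM, *Ret* at 6.16 and 15.6 CPM and *Gfra1* at 4.04 and 15.4 CPM. *Lhx1*, a GDNF-responsive homeobox gene, had 0 UMIs in Meioc-positive control cells against 9.69 CPM in the others, at least 14.0-fold lower at a bound of 3 UMIs over the pooled cells, and it was at 0.466 against 16.5 CPM in the *Cnot3*-cKO. *Rspo2*, a Wnt agonist, was at 0.920 and 0.932 CPM against 10.3 and 13.8 CPM. None of the 7 progenitor and 9 undifferentiated genes at the minimum was 2-fold lower in both libraries, with medians of -0.31 (8 genes) and -0.46 (7 genes) for the progenitor list and of -0.55 and -1.13 for the undifferentiated list.

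Cell cycle and histone genes gave a mixed picture. *Ccne2*, cyclin E2, was the only 1 of 20 S phase genes past 2-fold in both libraries, at 60.0 and 63.8 CPM against 20.5 and 22.9 CPM, and none of 20 G2 and M phase genes was. Of 19 histone genes at the minimum, 3 were 2-fold higher in both. *H2afx*, the variant phosphorylated at DNA breaks, was at 110 and 73.6 CPM against 45.0 and 29.9 CPM, and the linker histone gene *Hist1h1a* at 175 and 136 CPM against 66.7 and 57.5 CPM. *Hist1h2aa* was the third. None of 22 CCR4-NOT and deadenylation genes and none of 16 piRNA pathway genes reached 2-fold in both.

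**Figure D4:**
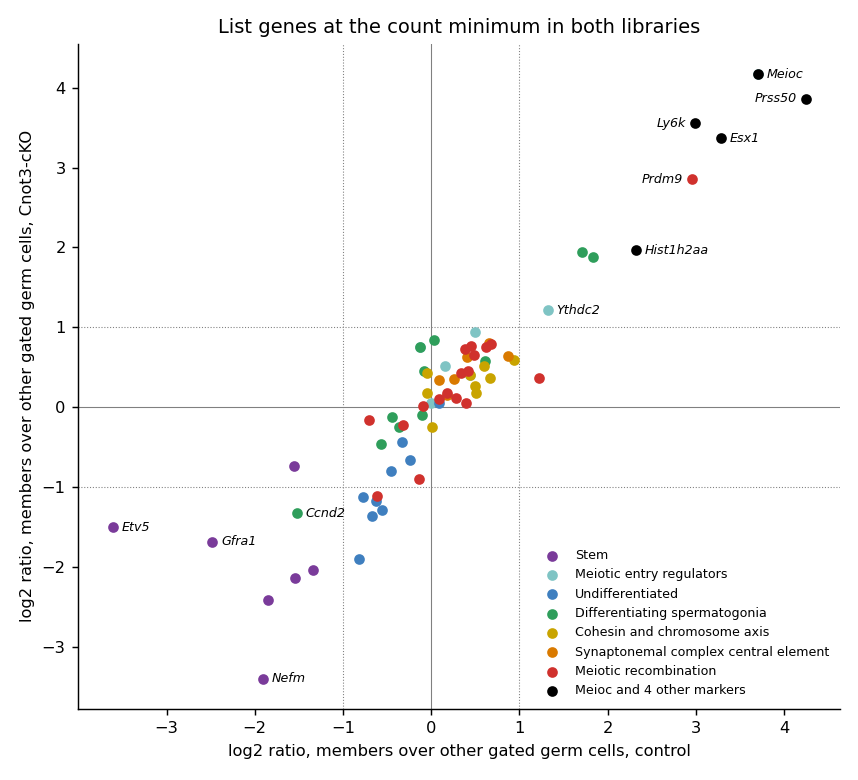
Log2 ratio of Meioc-positive cells (members) over the other germ cells in the control (horizontal axis) and in the *Cnot3*-cKO (vertical axis), one point per gene of 8 lists with at least 100 UMIs in both libraries, with dotted lines at 2-fold. *Prss50* lies at 4.25 and 3.86, the stem genes lie to the lower left, and *Lhx1*, at 0 UMIs in the Meioc-positive control cells, is not drawn.

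Between genotypes, Meioc-positive cells of the *Cnot3*-cKO had less RNA of progenitor genes and more of p53 targets. Of 7090 genes with at least 100 UMIs over both sets of cells, 157 (2.21%) were at least 1.5-fold higher and 251 (3.54%) at least 1.5-fold lower in the *Cnot3*-cKO. These are differences between 1 library and 1 library. The control held 115 of these cells and 4347531 of their UMIs, and the *Cnot3*-cKO 51 cells and 2146021 UMIs.

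Of 7 progenitor genes at the minimum, 5 were at least 1.5-fold lower, and the median log2 ratio was -0.90 against 0.00 for all genes. *Sox3*, an X-linked factor of progenitors, was at 68.3 CPM in the control and 41.9 CPM in the *Cnot3*-cKO. *Rarg*, a retinoic acid receptor, was at 19.09 and 8.85 CPM, *Upp1* (uridine phosphorylase) at 40.9 and 19.6 CPM, and *Ddit4*, an inhibitor of mTORC1, at 38.2 and 20.5 CPM. *Nanos3*, an RNA-binding protein, was the fifth. *Kit* and *Sohlh1*, which are also used in later spermatogonia, were the 2 that were not lower, at 48.3 and 58.2 CPM and at 188 and 225 CPM. *Neurog3*, a transcription factor that marks progenitors, had 51 UMIs in the control cells and 1 UMI in the *Cnot3*-cKO cells, 11.7 against 0.466 CPM, below the count minimum. Of 6 undifferentiated genes at the minimum, 4 were at least 1.5-fold lower, with a median of -0.79. *Zbtb16* was at 73.1 and 36.8 CPM, *Lin28a*, an RNA-binding protein, at 37.7 and 14.4 CPM, and *Foxo1*, a forkhead factor, at 95.2 and 63.4 CPM. In the other germ cells the median log2 ratio was -0.50 for the progenitor list and -0.10 for the undifferentiated list.

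Of these lower genes, *Zbtb16* and *Lin28a* were higher in the cells with at most 1 marker than in those with 3 or 4. Cells with at most 1 marker made up 26.1% of the control set and 19.6% of the *Cnot3*-cKO set, shares with overlapping intervals. Most of the other listed genes are not given by marker class. *Foxf1*, a forkhead factor and the lowest gene by the fixed rule, was at 36.8 CPM in the control and 4.66 CPM in the *Cnot3*-cKO. In cells with at most 1 marker it was at 94.0 and 16.7 CPM, and in cells with 3 or 4 markers at 3.40 CPM and 0 UMIs. *Rragd*, a Rag GTPase of the mTORC1 pathway, was at 57.5 and 15.8 CPM over all Meioc-positive cells, at 148 and 35.1 CPM with at most 1 marker and at 5.28 and 3.13 CPM with 3 or 4 markers. *Ccnjl*, a cyclin J-like gene, was at 23.0 and 2.33 CPM over all of them. *Lin28a* was at 95.2 and 35.1 CPM with at most 1 marker but at 4.91 and 5.49 CPM with 3 or 4, so that among the cells with most markers it was not lower. *Zbtb16* was lower there too, at 21.9 (16.6 to 28.3) and 9.40 (4.86 to 16.4) CPM. *Foxf1*, *Rragd* and *Lin28a* were thus lower within the cells with at most 1 marker, of which the *Cnot3*-cKO had 10. Such cells also differed between the libraries in *Neurog3* and *Gfra1*, as given above, so they may not be cells of the same kind. Other genes named by the rule as lower were *Orai1* (a calcium channel), *Ube2r2* (a ubiquitin-conjugating enzyme), *Cmip* and *Ddah2*, with *Ube2r2* at 72.2 and 26.6 CPM. The genes named by the rule as lower were also lower in the other germ cells, but by less. Their log2 ratios there ran from -0.29 for *Ddah2* to -1.13 for *Ube2r2*, which was at -1.44 in Meioc-positive cells.

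All 10 p53 and apoptosis genes at the minimum had log2 ratios above 0, and 4 were at least 1.5-fold higher in the *Cnot3*-cKO, with a median of 0.39. *Cdkn1a*, the p53-induced cell cycle inhibitor p21, was at 14.5 CPM in the control and 41.5 CPM in the *Cnot3*-cKO, a log2 ratio of 1.52. It was seen in 41 of 115 and in 28 of 51 cells, with up to 22 UMIs in a single *Cnot3*-cKO cell, and without the top cell of each library the ratio was 1.23. In cells with 3 or 4 markers it was at 21.5 and 45.5 CPM. *Ccng1* (cyclin G1) was at 111 and 210 CPM, *Phlda3* (an AKT inhibitor) at 39.1 and 65.7 CPM and *Plk2* (a stress-responsive kinase) at 9.89 and 26.6 CPM. In the other germ cells the median of the list was 0.28. *Cdkn1a* had a larger log2 ratio there than in Meioc-positive cells, 2.34 against 1.52, at 6.04 and 30.5 CPM. *Plk2* had a log2 ratio of 1.22 there against 1.43. The higher p53 values were thus not shown to be particular to Meioc-positive cells.

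Of 20 G2 and M phase genes 19 had log2 ratios above 0, with a median of 0.41, and *Ccnb1* (cyclin B1, 180 and 318 CPM) and *Aurka* (Aurora kinase A, 34.5 and 58.2 CPM) were past 1.5-fold. The other germ cells had a median of 0.64 for the same list. The 20 S phase genes had a median of 0.21 with none past 1.5-fold. Axis genes (median 0.36), synaptonemal genes (0.19) and recombination genes (0.22) had none past 1.5-fold. Of 22 CCR4-NOT and deadenylation genes only *Cnot3* and *Nanos3*, which recruits the complex to RNA, were 1.5-fold lower, and the list had a median of -0.12. Of the 5 markers only *Ly6k* was past 1.5-fold, at a log2 ratio of 0.71.

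Several of the genes named as highest rested on few cells. *Mirt1*, a long noncoding RNA, was at 7.59 and 39.6 CPM, but 82 of its 85 *Cnot3*-cKO UMIs came from 1 cell, and without the top cells its log2 ratio was -2.09. *Rep15* was at 9.89 and 29.4 CPM, with 39 of its 63 *Cnot3*-cKO UMIs in 1 cell. *Lepr*, the leptin receptor, was at 9.66 and 30.3 CPM and was seen in 12 *Cnot3*-cKO cells. *Capg*, an actin-capping protein, was at 17.7 and 45.7 CPM. *RP24-273K21.5* was at 19.8 and 54.1 CPM and *Gm26785* at 22.1 and 50.8 CPM, both noncoding or unnamed transcripts. *Capg* and *Gm26785* were not particular to Meioc-positive cells, with log2 ratios of 1.37 and 1.20 in them and 1.55 and 1.22 in the other germ cells. There *Mirt1* (0.52), *Lepr* (0.88), *Rep15* (0.46) and *RP24-273K21.5* (0.57) had smaller log2 ratios than in Meioc-positive cells. *Cdkn1a* and *Plk2* were the other genes named as higher.

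**Figure D5:**
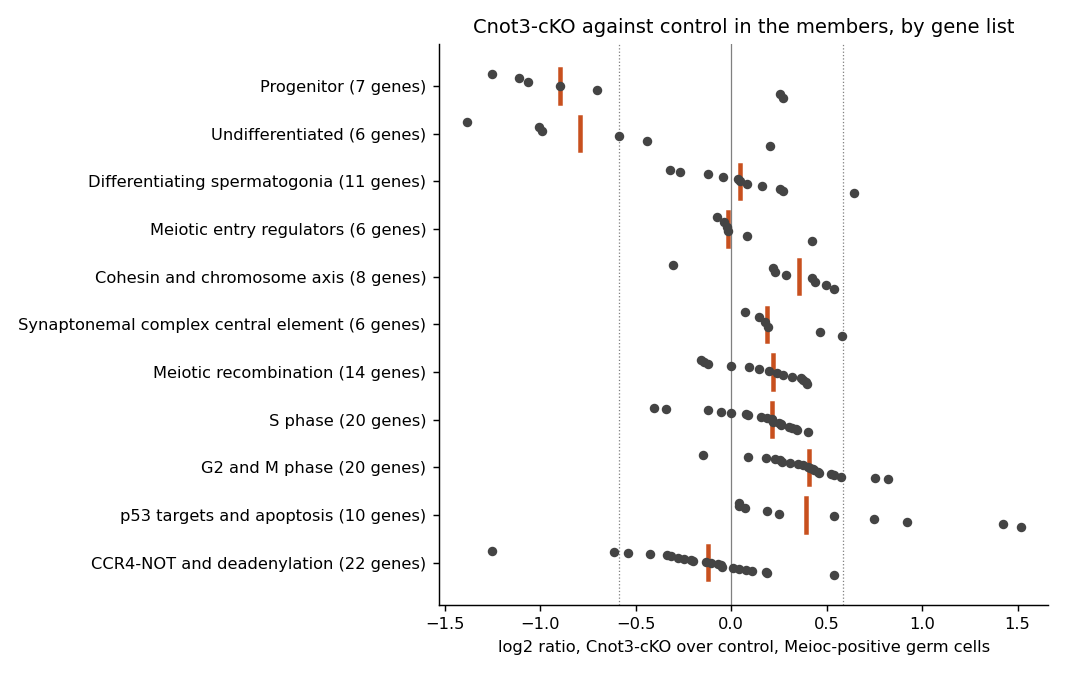
Log2 ratio of *Cnot3*-cKO over control in Meioc-positive cells (horizontal axis) for the genes of 11 lists (rows), one point per gene with at least 100 UMIs, an orange bar at the list median and dotted lines at 1.5-fold. The progenitor list has its median at -0.90, the undifferentiated list at -0.79 and the p53 list at 0.39.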

How the data were processed

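Sorted CD9+/THY1+ testis cells from both genotypes were sequenced as 10x Genomics 3′ v3.1 libraries. What the authors deposited are UMI counts without normalization, produced by Cell Ranger 3.0.1 on mm10 (Ensembl gene models), as 1 unfiltered table per genotype that merges the 2 samples of the labels. Cells were gated as stated in the opening, UMIs were summed over cells of a kind and divided by their total (CPM), and log2 ratios of sums were given an exact conditional 95% interval. Genes with at least 100 UMIs were compared: a 2-fold limit against other germ cells of the same library, required in both, and a 1.5-fold limit between genotypes. Named genes were the 10 highest and 10 lowest by the nearer interval limit against other germ cells, the 8 highest and 8 lowest between genotypes, and members of fixed lists. One gene of the 8 lowest is not reported here. The cells, markers and lists were chosen with earlier results of these data known. GENCODE coordinates matched 99.8% of 30828 gene identifiers. RefSeq promoters matched 144 of the 181 genes higher and 147 of the 209 lower. Doublets were not removed. The Scrublet caller of scanpy 1.11.5 marked 5.95% of control and 4.85% of *Cnot3*-cKO barcodes at the depth and mitochondrial limits, among them 5 and 1 Meioc-positive cells. The filters of the study's methods (10% mitochondrial UMIs and an upper bound on UMIs and genes) were used only as an alternative. The upper bound was computed here from barcodes with at least 8000 UMIs and may differ from the study's own. These filters would have removed 82 of 115 (71.3%) and 43 of 51 (84.3%) Meioc-positive cells. Of the other germ cells they would have removed more, 894 of 1081 (82.7%) and 400 of 452 (88.5%). The steps were tested on simulated counts with known fold changes. Python 3.11.15, numpy 2.4.6, scipy 1.17.1 and pandas 2.3.3 were used.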

Additional observations from a re-analysis of the deposited data

Results flagged for a closer look

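Some genes of the fixed lists had a log2 ratio of Meioc-positive cells over other germ cells that lay above 0 in one library and below 0 in the other, with both counting intervals clear of 0. *Stra8*, the retinoic acid-induced gene of meiotic entry, stood at -0.12 in the control and at 0.75 in the *Cnot3*-cKO. *Cdc20*, an activator of the anaphase-promoting complex, stood at 0.43 in the control and at -0.41 in the *Cnot3*-cKO. *Ddit4*, an inhibitor of mTORC1, stood at 0.31 and -0.46. *Hist1h1e*, a linker histone gene, stood at 0.41 and -0.56. Each value comes from 1 library per genotype, and the difference between the libraries was not tested.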

How the results depend on the processing

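No paired analysis was possible because the 2 samples of a genotype are merged in 1 table, and for the same reason leaving out a replicate was not possible. Counts of genes past a fold moved with the settings. The *Cnot3* log2 ratio in Meioc-positive cells (-0.61) lay between -0.96, with a 10% mitochondrial limit, and -0.51, and fell outside the interval of the reported value only at that limit. The share of Meioc-positive cells became 18.4% and 16.7% (control and *Cnot3*-cKO) with a minimum of 2 *Meioc* UMIs, 4.35% and 4.17% with a minimum of 5, 13.3% and 16.0% with the study's upper bound on UMIs and genes, and 15.9% and 10.5%, the widest gap, when at least 1 *Meioc* UMI was required after thinning to 8000 UMIs. The counts 2-fold higher and lower than other germ cells (181 and 209) became 44 and 28 with 2 *Meioc* UMIs, 449 and 918 with 5, 87 and 102 with the 10% mitochondrial limit, 48 and 14 with *Meioc* read after thinning, 275 and 530 with means of per-cell CPM, 283 and 413 with a 30-UMI minimum per gene, 537 and 389 with any UMI in each group, 56 and 18 where the interval limit had to pass the fold, 33 and 17 against Kit-positive cells, and 287 and 332 against Gfra1-positive cells. With all cells thinned to 8000 UMIs 82 were higher. The counts 1.5-fold higher and lower in the *Cnot3*-cKO (157 and 251) became 262 and 423 with 2 *Meioc* UMIs, 240 and 409 with *Meioc* read after thinning, 56 and 68 with thinned cells, 515 and 729 with the 30-UMI minimum, 2387 and 1608 with any UMI, and 18 and 31 with the interval limit, and 83 were higher with 5 *Meioc* UMIs. With the Meioc-positive cells that have 3 or 4 of the other markers, an alternative chosen after seeing the data, 537 and 1270 genes were higher and lower than other germ cells and 53 and 100 between genotypes, and *Lin28a* was reversed at 0.16. *Mirt1* was reversed at -1.42 with 5 *Meioc* UMIs and at -0.89 with the study's upper bound, and *Lepr* at -0.42 with 5 *Meioc* UMIs. Fewer cells or UMIs leave fewer genes at the minimum, and otherwise the cause was not tested. Depth limits genes near 100 UMIs, for which a difference of 1.5-fold can be within counting error.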

Other observations

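Some further genes were also lower in Meioc-positive cells than in the other germ cells of the control by the rule for named genes. *Tcl1*, a coactivator of AKT, was at 4.14 against 21.1 CPM, *Foxc2*, a forkhead factor, at 3.45 against 14.9 CPM, and *Rhox5*, an X-linked homeobox gene, at 1.15 against 7.05 CPM. *Pitpnc1*, a phosphatidylinositol transfer protein, was at 2.76 against 12.5 CPM, and *H2afy2*, which encodes a macroH2A histone, at 17.9 against 53.9 CPM. In the same order, these genes were at 2.45, 1.59, 1.86, 3.91 and 13.5 CPM in Kit-positive control cells. In Gfra1-positive control cells they were at 75.9, 59.1, 12.8, 26.5 and 91.8 CPM. The low levels were thus shared with Kit-positive cells.

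*Tex101*, a germ cell surface protein of the same superfamily as LY6K, was at 232 and 339 CPM in Meioc-positive cells of the control and the *Cnot3*-cKO, against 150 and 244 CPM in the other germ cells. *Mt1*, a metallothionein that binds zinc, was at 524 CPM in the control and 810 CPM in the *Cnot3*-cKO, a log2 ratio of 0.63 between genotypes. It was the only 1 of 12 glutathione and metallothionein genes at the minimum past 1.5-fold. The list had a median of 0.22, with 7 of 12 above 0. Germ cells with at least 3 *Gfra1* UMIs that were not Meioc-positive had *Prss50* at 0.926 and 3.82 CPM.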
